A study of Mus musculus with 18 samples.

Results

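The genes described are those of synaptic vesicle release and of the SNARE family in mouse cerebellum: every gene with a protein-coding transcript whose symbol is that of a synaptotagmin (Syt), syntaxin (Stx), vesicle-associated membrane protein (Vamp), Snap, syntaxin-binding protein (Stxbp), complexin (Cplx), synapsin (Syn), RIM (Rims) or Munc13 (Unc13). The rule reads names alone and found 66 of the 54752 genes in the RNA files, 21904 of which have a protein-coding transcript. They are 17 Syt, 15 Stx, 7 Vamp, 7 Stxbp, 5 Snap, 4 Cplx, 4 Rims, 4 Unc13 and 3 Syn genes, and all 66 are also among the 22523 genes of the footprint files.

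SNARE proteins on a vesicle and on its target membrane zip into a bundle that pulls the membranes together. In neurons the bundle is made by synaptobrevin, syntaxin and SNAP-25. Munc13 proteins guide its assembly, complexin clamps it, synaptotagmin triggers fusion when calcium enters, RIM proteins hold vesicles near calcium channels at the active zone, and synapsins tether the reserve vesicles. In the cerebellum the granule neurons, whose parallel fibres contact Purkinje cells, are the most numerous neurons, while most syntaxins outside the plasma membrane serve trafficking in every cell.

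RNA and ribosome-protected fragments (footprints) were sequenced from the cerebella of mice aged 3 weeks in 6 groups of 3 libraries, 1 for each of 3 genotypes and both assays. The genotypes are B6J, the C57BL/6J control; Gtpbp1, homozygous for an allele in which a neomycin cassette driven by the PGK promoter takes the place of part of exon 3 and all of exon 4, bred onto C57BL/6J; and Gtpbp2, homozygous for nmf205, a chemically induced point mutation that acts as a null. Every group, controls included, carries the C57BL/6J variant of n-Tr20, a brain-enriched gene for tRNA-Arg-UCU, which reads AGA codons and is impaired in this strain, so no library comes from a cerebellum in which that tRNA gene is intact. Each footprint library came from 1 cerebellum, and all RNA libraries bear the batch label 1 and all footprint libraries the label 2, so assay and batch cannot be told apart. The authors used both sexes, but by the Y-linked gene Ddx3y all 3 Gtpbp2 libraries of each assay were female, while males made up 1 of 3 B6J and 2 of 3 Gtpbp1 RNA libraries, and 2 of 3 B6J and 1 of 3 Gtpbp1 footprint libraries. With sex as a covariate, in a fit of all 9 RNA libraries, edgeR called 24 members in Gtpbp1 RNA and 17 in Gtpbp2 RNA. Over all genes it called 2399 and 2073 of 26202. Without the covariate, the fit of all 9 libraries lost no RNA call of the fits of 6 libraries described below. It added Stx3 in Gtpbp1 and 7 members in Gtpbp2, and over all genes it called 3385 and 2859 of 26202. No footprint fit had the covariate. RNA libraries held 37794333 to 52114145 estimated counts and footprint libraries 3630823 to 10442573 counts.

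The genotype labels were checked on the mutated genes, in CPM, counts scaled by edgeR to the size of each library within an assay. Gtpbp1 RNA was 70.7, 77.6 and 66.5 CPM in the 3 B6J libraries, 44.2, 41.7 and 43.8 in Gtpbp1 and 58.8, 72.3 and 65.8 in Gtpbp2. Its footprints were 73.9, 116 and 85.6 CPM in B6J, 31.7, 25.4 and 36.1 in Gtpbp1 and 79.3, 66.2 and 61.8 in Gtpbp2. In CPM of both assays each Gtpbp1 library lay below each of the other 6. In TPM, Gtpbp1 RNA was 43.5, 38.4 and 40.4 in B6J, 34.5, 35.1 and 41.1 in Gtpbp1 and 40.3, 43.2 and 39.9 in Gtpbp2, which overlap. Gtpbp2 RNA was 85.6, 73.8 and 87.8 CPM in B6J, 109, 101 and 104 in Gtpbp1 and 65.6, 75.5 and 72.9 in Gtpbp2, and its footprints were 44.9, 36.0 and 38.8 CPM in B6J, 35.9, 43.1 and 59.2 in Gtpbp1 and 28.9, 26.2 and 7.51 in Gtpbp2. The Gtpbp2 footprint libraries lay below the others, while the RNA of Gtpbp2 and B6J overlapped in CPM, a weak check for a point mutation. In TPM, Gtpbp2 RNA was 114, 91.7 and 99.0 in B6J, 139, 160.0 and 162 in Gtpbp1 and 127, 145 and 151 in Gtpbp2, where each library lay above each B6J library.

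In B6J the members spanned the whole range from the most abundant neuronal transcripts to nearly absent ones. Per transcript length, Snap25 led with 2090.2 ± 137 TPM (kallisto's length-corrected unit, mean ± SD, n = 3 as in every group here), 27.4% of the members' summed TPM. Vamp2 had 544 ± 24.9 TPM, Cplx1 342 ± 2.83, Syt4 298 ± 26.7 and Syt11 249.6 ± 17.3. Close to Syt11 lay Syt1 with 239.7 ± 19.9 TPM and Cplx2 with 226 ± 27.2, Syt1 below Syt11 and Cplx2 below Syt1 by less than the SD of either gene. In all, 21 members had a mean of at least 100 TPM, 29 lay between 10 and 100, 10 between 1 and 10, and 6 below 1. Stx1a reached 6.72 ± 0.242 TPM. The 6 members below 1 TPM were Syt15, Stx11, Stx19, Cplx4, Vamp9 and Syt8, of which Stx11 and Stx19 are syntaxins of blood and epithelial cells.

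Taken as a sum, the RNA of all 66 members was 12282, 13206 and 12195 CPM in the B6J libraries, 9187, 9082 and 9223 in Gtpbp1 and 9989, 9396 and 9358 in Gtpbp2, and their footprints 11196, 11757 and 12648 CPM in B6J, 9454, 9403 and 8341 in Gtpbp1 and 9177, 8374 and 9358 in Gtpbp2. In both assays every mutant library lay below every B6J library. The mutants overlapped each other in footprints, while in CPM every Gtpbp1 RNA library lay below every Gtpbp2 RNA library. In TPM the members summed to 7552, 7954 and 7414 in B6J, 6152, 6233 and 6332 in Gtpbp1 and 6627, 6373 and 6203 in Gtpbp2. By that measure the mutants overlap each other and lie below B6J. Mitochondrial transcripts made up 5.61% to 6.18% of the RNA counts in B6J, 4.42% to 4.99% in Gtpbp1 and 4.80% to 5.04% in Gtpbp2. Their part in the results was not tested. Since the tissue is a whole cerebellum, fewer cells of a type and less RNA per cell cannot be told apart.

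The first comparison asks how loss of GTPBP1, a factor that acts on paused ribosomes, alters the RNA of these genes. Of the 64 members tested in Gtpbp1 against B6J, 26 passed an adjusted p of 0.05 in the quasi-likelihood test of edgeR (40.6%, against 13.8% of the 24577 genes tested), and Cplx4 and Syt8 had too few counts for the test. The RNA of 25 fell (background 7.93%) and that of 1, Unc13b, rose (background 5.9%). DESeq2 called 29, 27 lower and 2 higher (Unc13b and Stx3), and 4284 of 19325 genes. Where nothing else is named, a call is one of edgeR in this fit, and other settings called further members. Differences are given on the log2 scale ± the standard error of the fit. The median log2 fold change of the 64 was -0.22, against 0.03 over all genes, with 46 negative and 18 positive values. In 32 members all 3 Gtpbp1 libraries lay below all 3 B6J libraries (15.5% of all genes did), and in 7 above (16.4%).

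Gtpbp2 against B6J asks the same of the related factor GTPBP2 and uses the same B6J libraries, so the comparisons are not independent of each other. There 17 of the 64 members tested passed (26.6%, background 8.63%), Syt8 and Vamp9 being too low for the test. The RNA of 16 fell (background 5.02%) and that of Unc13b rose (background 3.61%). DESeq2 called 29, 25 lower and 4 higher (Unc13b, Stxbp6, Syt5 and Syt16), and 3409 of 19067 genes. Rims2, Syn2, Syt1, Syt3, Syt4, Unc13a and Unc13d, which edgeR called lower in RNA of Gtpbp1 alone, are among the 25, and with all 9 libraries in 1 model edgeR also called all of these 7 but Syt4 in Gtpbp2. The median log2 fold change was -0.20 against 0.03 over all genes, and 26 members had all 3 Gtpbp2 libraries below all B6J libraries (13.6% of all genes) against 4 above (14.9%). With 1 library left out, edgeR called 9 members without B6J library 1 or B6J library 2 and 10 without Gtpbp2 library 3. With no filter on low counts it called 26 members, and 2894 of 36546 genes. Between the mutants, tested directly, edgeR called 0 of 65 members (background 0.0595%, of which 0.0159% higher and 0.0437% lower in Gtpbp1). DESeq2 called 0 too, beside 46 of 20788 genes. In edgeR 5 members and 899 of 25190 genes had an unadjusted p under 0.05, and the members' median was -0.04.

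Footprints on coding sequence, which count ribosomes on a gene's mRNA, were compared in the same pairs. In Gtpbp1 against B6J, 1 of 61 members passed, Rims1, whose footprints fell (background 0.745%, 0.172% lower and 0.573% higher). DESeq2 called 7, all lower (Rims1, Rims2, Rims3, Cplx2, Syt3, Unc13c and Unc13d), and 406 of 13953 genes. An unadjusted p under 0.05 was found in 20 members and in 1763 of 13956 genes. The median of the 61 was -0.23, against 0.01 over all genes, and 16 members had all Gtpbp1 libraries below all B6J libraries (9.11% of all genes) against 4 above (8.89%). Leaving out Gtpbp1 library 1 or 2 or B6J library 1 or 2 brought the count of 1 to 0, and leaving out library 3 of either genotype brought it to 2, Rims1 and Unc13c. In Gtpbp2 against B6J, 7 of 61 passed (background 2.94%), and all 7 fell (1.67% lower, 1.28% higher): Cplx2, Snap91, Syn1, Syt1, Syt3, Syt12 and Syt13. DESeq2 called 10 there, all lower and with Rims1 and Snap25 among the added ones, and 655 of 13261 genes, 300 of them higher. The median was -0.16 against 0.01, and 16 members lay below B6J in every library (12.2% of all genes) against 4 above (10.3%). The count of 7 became 0 without Gtpbp2 library 1 or Gtpbp2 library 2 and 2 without Gtpbp2 library 3 or B6J library 2. With all 9 libraries in 1 model it became 3, beside 261 of 14304 genes. Cplx4, Stx11, Stx19, Syt8 and Vamp9 had too few footprints for these tests. In the direct test of Gtpbp1 against Gtpbp2 footprints, edgeR called 0 of 61 members (background 0%), with 5 at an unadjusted p under 0.05 (1523 of 14142 genes). DESeq2 called 0 members too, out of 100 calls among 13860 genes.

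Translational efficiency, the change of footprints beyond that of RNA, was tested as the interaction of assay and genotype. In Gtpbp1, edgeR called 0 of 61 members (background 0%). An unadjusted p under 0.05 was found in 4 members and in 1170 of 13086 genes, and the median was 0.09 against 0.03. DESeq2 called 0 members there and 58 of 12826 genes. Without B6J footprint library 3 edgeR called 2, Unc13b and Unc13c. In Gtpbp2, edgeR called 0 of 60 members, Cplx3 being left out as well (background 0.00773%, all of it lower). There 13 members had an unadjusted p under 0.05, beside 1554 of 12931 genes, and the median was 0.00 against 0.03. DESeq2 called 0 members and 160 of 12929 genes, 69 of them higher. Over all comparisons 27 members were called at least once, a count that serves to choose the genes named here. The matching share of all genes was not counted.

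**Figure D1:**
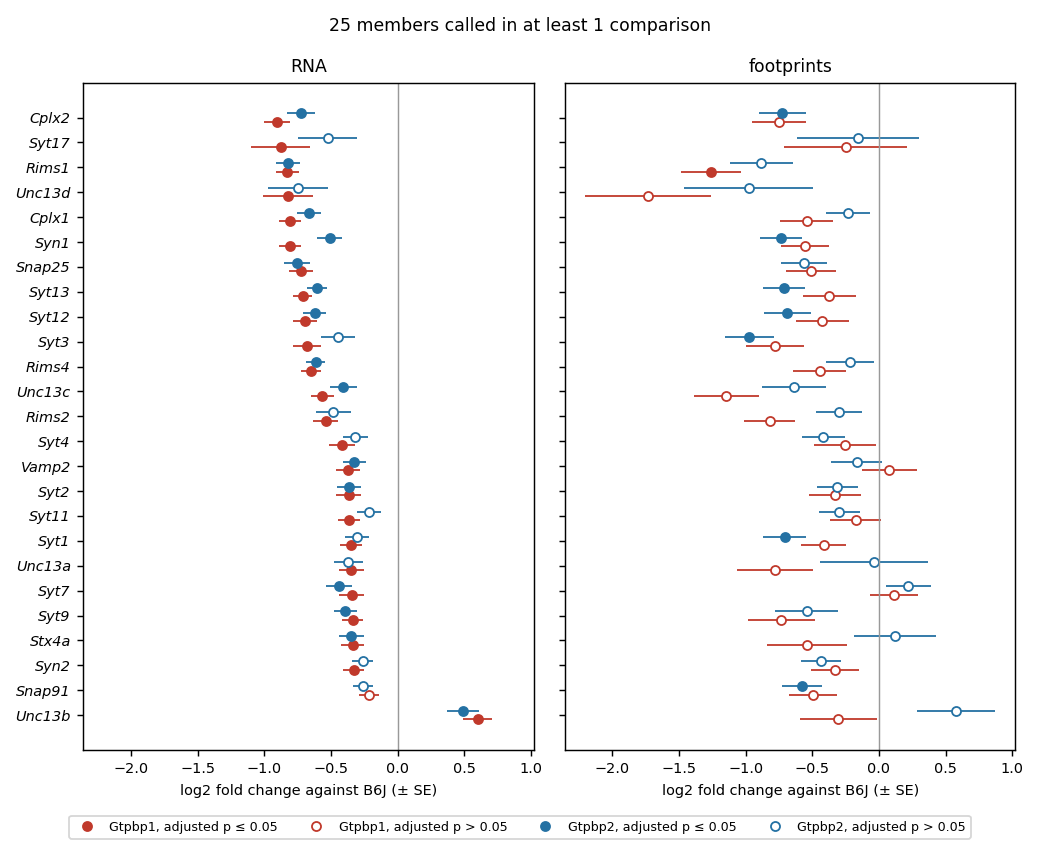
Fold changes of 25 members called in at least 1 comparison, RNA on the left and footprints on the right. Each point is the edgeR log2 fold change of Gtpbp1 (red) or Gtpbp2 (blue) against the same 3 B6J libraries with its standard error, filled where the adjusted p is at most 0.05. In RNA, 24 of the 25 genes lie left of 0 in both mutants and Unc13b lies right of it. In the footprints 8 points are filled, 1 of them red.

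The calcium sensors of fast release are Syt1, Syt2 and Syt9, vesicle proteins whose C2 domains bind calcium and the membrane. Syt1 RNA was 517, 579 and 509 CPM in B6J, 443, 417 and 406 in Gtpbp1 and 478, 413 and 415 in Gtpbp2, and its footprints were 395, 487 and 464 CPM in B6J, 339.9, 348 and 317 in Gtpbp1 and 261, 245 and 318 in Gtpbp2. In both assays all 6 mutant libraries lay below the 3 of B6J. The RNA fell in Gtpbp1, by 0.35 ± 0.08 log2 units (adjusted p 0.0138), and was at a log2 fold change of -0.30 ± 0.09 (adjusted p 0.0650) in Gtpbp2, where DESeq2 called it, whereas the footprints fell in Gtpbp2 by 0.71 ± 0.16 log2 units (adjusted p 0.0268), and were at a log2 fold change of -0.42 ± 0.17 (adjusted p 0.328) in Gtpbp1. Syt2, the sensor of many hindbrain and cerebellar synapses, had 507, 528 and 431 CPM of RNA in B6J, 379, 352 and 409.7 in Gtpbp1 and 385, 381 and 377 in Gtpbp2, with no overlap between B6J and a mutant. Its footprints were 309, 349.6 and 419.9 CPM in B6J, 311, 314 and 230.3 in Gtpbp1, which overlap B6J, and 303, 276 and 289 in Gtpbp2, which do not. Syt2 RNA fell in both mutants, by 0.37 ± 0.10 log2 units (adjusted p 0.0220) in Gtpbp1 and 0.37 ± 0.09 log2 units (adjusted p 0.0305) in Gtpbp2, while the log2 footprint differences, -0.33 ± 0.20 (adjusted p 0.525) and -0.31 ± 0.16 (adjusted p 0.322), did not pass. Syt9 RNA was 97.0, 108 and 91.1 CPM in B6J, 75.2, 76.8 and 83.3 in Gtpbp1 and 71.6, 81.2 and 74.1 in Gtpbp2, again apart, and fell by 0.34 ± 0.08 log2 units (adjusted p 0.0135) and 0.39 ± 0.09 log2 units (adjusted p 0.0175). Its footprints, 30.3, 41.0 and 28.9 CPM in B6J, 17.3, 16.8 and 26.3 in Gtpbp1 and 29.7, 20.2 and 18.9 in Gtpbp2, overlapped only through Gtpbp2 library 1, and neither difference passed (log2 differences of -0.73 ± 0.25 and -0.54 ± 0.24).

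Calls of all 3 sensors depended on single libraries. The call of Syt1 in Gtpbp1 RNA ended without Gtpbp1 library 2 or B6J library 2 (adjusted p up to 0.0728), and that in Gtpbp2 footprints without Gtpbp2 library 1, Gtpbp2 library 2 or B6J library 2 (adjusted p up to 0.155). Syt2 lost its Gtpbp1 call without Gtpbp1 library 1, Gtpbp1 library 2, B6J library 1 or B6J library 2 (adjusted p up to 0.127) and its Gtpbp2 call without Gtpbp2 library 2, Gtpbp2 library 3, B6J library 1 or B6J library 2 (adjusted p up to 0.132) and under upper-quartile scaling (up to 0.0509 over the 8 alternatives). Syt9 lost its Gtpbp1 call without Gtpbp1 library 1, Gtpbp1 library 2 or B6J library 2 (adjusted p up to 0.0701) and with an offset for transcript length (up to 0.0538 over the 8 alternatives). Its Gtpbp2 call ended without Gtpbp2 library 3, B6J library 1 or B6J library 2 (adjusted p up to 0.0800) and with an offset for transcript length (up to 0.0684 over the 8 alternatives).

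Syt3 and Syt7 are calcium sensors of higher affinity, Syt7 being the sensor of asynchronous release and of facilitation at several synapses. Syt3 RNA was 50.2, 40.5 and 41.8 CPM in B6J, 30.1, 27.1 and 25.9 in Gtpbp1 and 38.9, 28.4 and 30.6 in Gtpbp2. The footprints were 78.0, 109.7 and 79.0 CPM in B6J, 40.3, 53.7 and 61.2 in Gtpbp1 and 41.7, 46.6 and 47.6 in Gtpbp2. Every mutant library was below every B6J library in both assays. The RNA fell in Gtpbp1 by 0.68 ± 0.11 log2 units (adjusted p 0.000822) and was at a log2 fold change of -0.45 ± 0.13 (adjusted p 0.0551) in Gtpbp2, and the footprints fell in Gtpbp2 by 0.97 ± 0.18 log2 units (adjusted p 0.00934), and were at a log2 fold change of -0.78 ± 0.22 (adjusted p 0.131) in Gtpbp1. DESeq2 called the RNA in Gtpbp2 and the footprints in Gtpbp1 as well. The footprint call ended without Gtpbp2 library 1 or Gtpbp2 library 2 (adjusted p up to 0.0810). Syt7 RNA was 364, 402 and 329.8 CPM in B6J, 307, 266 and 294 in Gtpbp1 and 295, 271 and 248 in Gtpbp2, all mutant libraries below B6J, and fell by 0.34 ± 0.09 log2 units (adjusted p 0.0248) and 0.44 ± 0.10 log2 units (adjusted p 0.0184). Its footprints were 223, 183 and 236 CPM in B6J, 195, 237 and 259 in Gtpbp1 and 224, 300.5 and 222 in Gtpbp2, so that the groups overlapped and the highest libraries were mutant ones. The ratio of mean footprint CPM to mean RNA CPM was 0.585 in B6J, 0.797 in Gtpbp1 and 0.918 in Gtpbp2, and the log2 efficiency estimates, 0.46 ± 0.20 (p 0.0324, adjusted p 0.530) and 0.66 ± 0.20 (p 0.00426, adjusted p 0.244), did not pass. The RNA call of Syt7 ended in Gtpbp1 without Gtpbp1 library 2, B6J library 1 or B6J library 2 (adjusted p up to 0.139) and with an offset for transcript length (up to 0.1 over the 8 alternatives) and in Gtpbp2 without Gtpbp2 library 2, Gtpbp2 library 3, B6J library 1 or B6J library 2 (adjusted p up to 0.0800) and with an offset for transcript length (up to 0.0658 over the 8 alternatives). Of the other calcium-binding synaptotagmins, Syt5, Syt6 and Syt10 lay at 3.06 to 10.6 TPM in B6J and none was called in this fit. Syt5, singled out after its values were seen, had 5.31, 5.53 and 12.4 CPM of RNA in B6J, 16.1, 19.5 and 12.4 in Gtpbp1 and 15.5, 14.4 and 18.1 in Gtpbp2. B6J library 3 stood well above the other B6J libraries. The log2 differences, 1.03 ± 0.37 (adjusted p 0.131) and 1.03 ± 0.32 (adjusted p 0.0873), did not pass. Without B6J library 3, or with an offset for transcript length, edgeR called it in both mutants, and DESeq2 called it in Gtpbp2.

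Synaptotagmins whose C2 domains lack calcium binding include Syt4 and Syt11, which are abundant in brain and act on other vesicle traffic and on retrieval, and Syt12 and Syt13. Syt4 RNA was 475, 579.5 and 542 CPM in B6J, 371, 386 and 442 in Gtpbp1 and 403, 431 and 453 in Gtpbp2, and Syt11 RNA 617, 629.7 and 575 CPM in B6J, 498, 474 and 449.7 in Gtpbp1 and 542, 478 and 560.0 in Gtpbp2. Neither gene's mutant libraries overlapped B6J. Both fell in Gtpbp1, Syt4 by 0.42 ± 0.10 log2 units (adjusted p 0.0122) and Syt11 by 0.36 ± 0.08 log2 units (adjusted p 0.00924), and were at a log2 fold change of -0.32 ± 0.09 (adjusted p 0.0583) and -0.21 ± 0.09 (adjusted p 0.174) in Gtpbp2, where DESeq2 called Syt4. Syt4 footprints were 431, 495 and 545 CPM in B6J, 535, 413 and 278 in Gtpbp1 and 402, 310.3 and 388 in Gtpbp2, and Syt11 footprints 607, 635 and 747 CPM in B6J, 665, 617 and 470.1 in Gtpbp1 and 514, 529 and 572 in Gtpbp2. Of the Gtpbp1 libraries 1 of 3 lay in the B6J range for Syt4 and 2 of 3 for Syt11, the rest and all those of Gtpbp2 lay below it, and no footprint difference passed. The Gtpbp1 call of Syt4 ended without Gtpbp1 library 1, Gtpbp1 library 2 or B6J library 2 (adjusted p up to 0.0705), and that of Syt11 without Gtpbp1 library 2 or B6J library 1 (adjusted p up to 0.0535).

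Syt12 RNA was 124, 133 and 111 CPM in B6J, 71.8, 71.6 and 84.5 in Gtpbp1 and 75.8, 85.1 and 79.3 in Gtpbp2, and Syt13 RNA 161, 160.0 and 157 CPM in B6J, 97.8, 102 and 93.7 in Gtpbp1 and 113, 97.3 and 106 in Gtpbp2. In both genes the mutants stood clear of B6J and of similar height to each other. Syt12 RNA fell by 0.70 ± 0.09 log2 units (adjusted p 0.000197) in Gtpbp1 and 0.62 ± 0.09 log2 units (adjusted p 0.00129) in Gtpbp2, and Syt13 RNA by 0.71 ± 0.07 log2 units (adjusted p 2.18e-05) and 0.60 ± 0.08 log2 units (adjusted p 0.000845). These 4 calls held in the 8 alternatives and in the 6 fits with 1 library left out. Syt12 footprints were 124, 183 and 168 CPM in B6J, 112, 103 and 138 in Gtpbp1 and 110.2, 99.2 and 85.6 in Gtpbp2, and those of Syt13 122, 148 and 148 CPM in B6J, 86.9, 101 and 135 in Gtpbp1 and 80.4, 94.8 and 80.3 in Gtpbp2. Gtpbp1 library 3 overlapped B6J for both genes, and the Gtpbp2 libraries did not. Footprints fell in Gtpbp2, by 0.69 ± 0.18 log2 units (adjusted p 0.0493) for Syt12 and by 0.71 ± 0.16 log2 units (adjusted p 0.0260) for Syt13, and were at a log2 fold change of -0.43 ± 0.20 (adjusted p 0.406) and -0.37 ± 0.20 (adjusted p 0.471) in Gtpbp1. The Syt12 footprint call ended without Gtpbp2 library 1, Gtpbp2 library 2, Gtpbp2 library 3, B6J library 2 or B6J library 3 (adjusted p up to 0.195) and under upper-quartile scaling and with all 9 libraries in 1 model (up to 0.0811 over the 5 alternatives), and the Syt13 one without Gtpbp2 library 1, Gtpbp2 library 2, Gtpbp2 library 3 or B6J library 2 (adjusted p up to 0.148) and with all 9 libraries in 1 model (up to 0.0683 over the 5 alternatives). Of the remaining genes of the class, Syt14, Syt15 and Syt16 were not called in any comparison, while DESeq2 and edgeR with no filter called Syt16 in Gtpbp2 RNA and leaving out a library added Syt14 in Gtpbp1 and Syt16 in Gtpbp2. Syt8 had 0 or 1 estimated RNA count in every library and no footprint. Syt17, a more distant relative, had 7.90, 8.89 and 7.71 CPM of RNA in B6J, 5.40, 5.01 and 2.95 in Gtpbp1 and 7.74, 4.43 and 4.95 in Gtpbp2, the last overlapping B6J through library 1. It fell in Gtpbp1 by 0.88 ± 0.22 log2 units (adjusted p 0.0171), a call that ended without B6J library 2 (adjusted p up to 0.0751) and with an offset for transcript length (up to 0.0855 over the 8 alternatives), and was at a log2 fold change of -0.53 ± 0.22 (adjusted p 0.176) in Gtpbp2.

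Among the plasma membrane syntaxins, Stx1a is a partner in the neuronal fusion complex. Stx1a RNA was 7.18, 7.45 and 9.23 CPM in B6J, 8.63, 9.83 and 6.60 in Gtpbp1 and 14.4, 8.80 and 11.5 in Gtpbp2, and its footprints 9.88, 6.15 and 7.54 CPM in B6J, 8.58, 18.9 and 10.5 in Gtpbp1 and 13.3, 9.81 and 10.6 in Gtpbp2. The groups overlapped in both assays, and its log2 RNA differences, 0.06 ± 0.18 (adjusted p 0.873) and 0.53 ± 0.20 (adjusted p 0.124), did not pass, though edgeR called that of Gtpbp2 with no filter. Stx4a, which serves constitutive exocytosis, had 41.2, 39.1 and 42.5 CPM of RNA in B6J, 31.7, 34.6 and 31.4 in Gtpbp1 and 31.2, 35.0 and 31.0 in Gtpbp2. No mutant library reached the B6J range, and Stx4a RNA fell by 0.34 ± 0.09 log2 units (adjusted p 0.0215) and 0.35 ± 0.09 log2 units (adjusted p 0.0389). An exon of another member overlaps Stx4a on the opposite strand, and the libraries are unstranded, so some of these reads may be shared. Its Gtpbp1 call ended without Gtpbp1 library 1, Gtpbp1 library 3 or B6J library 1 (adjusted p up to 0.0691) and under upper-quartile scaling, from protein-coding transcripts alone, with an offset for transcript length and with sex as a covariate (up to 0.0820 over the 8 alternatives), and its Gtpbp2 call without any 1 of the 6 libraries (adjusted p up to 0.151) and under upper-quartile scaling, from protein-coding transcripts alone and with an offset for transcript length (up to 0.144 over the 8 alternatives). The fit with sex held all 9 libraries, and without the covariate that fit kept the Gtpbp1 call. Stx2, Stx11 and Stx19 were not called. Stx3 RNA was at a log2 fold change of 0.27 ± 0.09 (adjusted p 0.0649) in Gtpbp1, and it was called there by DESeq2 and, in edgeR, under upper-quartile scaling, with no filter, with all 9 libraries in 1 model and without B6J library 3. Stx3, a syntaxin of apical membranes and of ribbon synapses, had the largest footprint difference between the mutants among the members, singled out after it was seen: 8.15, 8.69 and 6.95 CPM in Gtpbp1 and 21.2, 17.4 and 11.8 in Gtpbp2, beside 11.2, 10.3 and 6.57 in B6J. Each Gtpbp2 library lay above each Gtpbp1 library, and the direct test gave a log2 difference of -1.08 ± 0.28 (p 0.00232, adjusted p 0.247), which did not pass.

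The syntaxins of the Golgi, endoplasmic reticulum and endosomes, Stx5a, Stx6, Stx7, Stx8, Stx12, Stx16, Stx17 and Stx18, were tested in every comparison. edgeR and DESeq2 called 0 of these 8 in any of them, with 2 at an unadjusted p under 0.05 in Gtpbp1 RNA (Stx8 and Stx17), 1 in Gtpbp2 RNA (Stx6), 1 in RNA of Gtpbp1 against Gtpbp2 (Stx5a) and 1 in the efficiency of Gtpbp2 (Stx8). Over all genes, edgeR called 13.8% in Gtpbp1 RNA and 8.63% in Gtpbp2 RNA. In the order of the comparisons just named, 6464 of 24577, 5585 of 24859, 899 of 25190 and 1554 of 12931 genes had an unadjusted p under 0.05. The median log2 fold change of the 8 syntaxins in RNA was -0.08 in Gtpbp1 and -0.02 in Gtpbp2, and in footprints 0.04 and 0.07. Stx7 may serve as an example of the group, with 104, 118 and 115 CPM of RNA in B6J, 102, 106 and 109 in Gtpbp1 and 100.4, 113 and 109 in Gtpbp2, which overlap. In TPM some of the group stood higher in the mutants. Stx16 was at 75.1 ± 1.87 TPM in B6J, 99.98 ± 3.35 in Gtpbp1 and 99.99 ± 4.78 in Gtpbp2. Stx6 was at 42.6 ± 1.90, 53.3 ± 4.34 and 54.7 ± 1.24 TPM. The mean TPM of Stx5a and Stx17 was lower in Gtpbp1 than in B6J. No test compared these syntaxins with those of the plasma membrane.

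SNAP-25, the product of Snap25, gives the neuronal fusion complex its plasma membrane partner of syntaxin. Snap25 RNA (gene ENSMUSG00000027273.13, chr2:136713453-136782428, plus strand of GRCm38) was 1941, 2166 and 1898 CPM in B6J, 1107, 1254 and 1290.3 in Gtpbp1 and 1198, 1310.0 and 1069 in Gtpbp2. Its footprints, the most numerous of any member, were 2768, 2969 and 2988 CPM in B6J, 2356, 1826 and 1919 in Gtpbp1 and 2092, 1597 and 2212 in Gtpbp2. In both assays every mutant library lay below every B6J library. The RNA fell by 0.72 ± 0.09 log2 units (adjusted p 0.000181) in Gtpbp1 and 0.75 ± 0.10 log2 units (adjusted p 0.00103) in Gtpbp2, and these calls held in all 8 alternatives and all 6 fits with 1 library left out, while the log2 footprint differences, -0.51 ± 0.19 (adjusted p 0.255) and -0.56 ± 0.17 (adjusted p 0.102), did not pass in edgeR, and DESeq2 called that of Gtpbp2. Transcript Snap25-201 made up 97.9% ± 0.195 of the gene's TPM in B6J, 93.1% ± 0.875 in Gtpbp1 and 94.2% ± 0.830 in Gtpbp2. Snap23, Snap29 and Snap47, which serve fusion in many cell types, were not called, with log2 RNA values of -0.24 ± 0.11, -0.06 ± 0.10 and -0.14 ± 0.07 in Gtpbp1. Snap91, the clathrin assembly protein AP180, shares only the letters of the name and returns vesicle membrane after release. Snap91 RNA was 362, 378 and 365 CPM in B6J, 314, 319.6 and 324 in Gtpbp1 and 309, 307 and 314 in Gtpbp2, and its footprints 553, 558 and 611 CPM in B6J, 404, 463 and 349 in Gtpbp1 and 375, 414 and 365 in Gtpbp2. Although each mutant library lay below each B6J library in both assays, edgeR in this fit called the footprints alone, in Gtpbp2, where they fell by 0.58 ± 0.15 log2 units (adjusted p 0.0480). The RNA stood at a log2 fold change of -0.21 ± 0.08 (adjusted p 0.0810) and -0.26 ± 0.07 (adjusted p 0.0550), and DESeq2 called it in both mutants. So did edgeR in Gtpbp1 with an offset for transcript length, and in Gtpbp2 from protein-coding transcripts alone and with all 9 libraries in 1 model. The footprint call of edgeR ended without any 1 of the 6 libraries (adjusted p up to 0.213) and under upper-quartile scaling and with all 9 libraries in 1 model (up to 0.0856 over the 5 alternatives).

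The vesicle partners are synaptobrevins: Vamp2 at most central synapses and Vamp1 at many hindbrain and spinal ones. Vamp2 RNA was 657, 717 and 744 CPM in B6J, 603, 538 and 501 in Gtpbp1 and 597, 549 and 553 in Gtpbp2, and its footprints 389, 405 and 632 CPM in B6J, 458, 525 and 515 in Gtpbp1 and 416, 367 and 483 in Gtpbp2. The RNA groups were apart, the footprints overlapped, and B6J footprint library 3 was the highest of all. Vamp2 RNA fell by 0.37 ± 0.09 log2 units (adjusted p 0.0155) in Gtpbp1 and 0.33 ± 0.09 log2 units (adjusted p 0.0384) in Gtpbp2, while the log2 footprint differences were 0.08 ± 0.21 (adjusted p 0.922) and -0.17 ± 0.19 (adjusted p 0.716). Its Gtpbp1 call ended without Gtpbp1 library 2, Gtpbp1 library 3 or B6J library 2 (adjusted p up to 0.0802), and its Gtpbp2 call without Gtpbp2 library 2, Gtpbp2 library 3, B6J library 1, B6J library 2 or B6J library 3 (adjusted p up to 0.129) and under upper-quartile scaling, with an offset for transcript length and with sex as a covariate (up to 0.0842 over the 8 alternatives). The fit with sex held all 9 libraries, and without the covariate that fit kept the Gtpbp2 call. Vamp1 RNA was 205, 207 and 256 CPM in B6J, 220.0, 207 and 139.9 in Gtpbp1 and 299.8, 173 and 252 in Gtpbp2, and its footprints 166, 137 and 205 CPM in B6J, 116, 200.1 and 149.9 in Gtpbp1 and 163, 132 and 236 in Gtpbp2. Libraries of 1 genotype differed more than the genotypes did, and Vamp1 was not called (log2 RNA differences of -0.24 ± 0.17 and 0.11 ± 0.19). Vamp3, Vamp4, Vamp5 and Vamp8, which act in endosomes, recycling membranes or muscle, were tested and not called. Vamp9 had 0 to 6 estimated RNA counts a library and was not called where tested.

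Among the syntaxin-binding proteins, Stxbp2 and Stxbp3 serve non-neuronal secretion, Stxbp5 and Stxbp5l encode tomosyns, which hold back fusion, and Stxbp6 encodes amisyn. None of these 5 genes, nor Stxbp4, was called by edgeR with the filter and all 6 libraries. DESeq2 called Stxbp2 in the RNA of both mutants and Stxbp6 in that of Gtpbp2, and edgeR without the filter called Stxbp2 in both and Stxbp6 in Gtpbp1. Leaving out B6J library 3 added Stxbp6 in both and Stxbp5l in Gtpbp2, and leaving out B6J library 2 added Stxbp2 in both. Their log2 RNA values ran from -0.44 ± 0.18 (Stxbp2) to 0.56 ± 0.30 (Stxbp6) in Gtpbp1 and from -0.57 ± 0.17 to 0.89 ± 0.27 for the same genes in Gtpbp2.

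Complexins bind the assembled bundle, holding back spontaneous fusion and speeding the evoked kind. Cplx1 and Cplx2 are the forms of central neurons and Cplx3 and Cplx4 those of the retina. Cplx1 RNA was 456, 463 and 475 CPM in B6J, 289, 262 and 248 in Gtpbp1 and 328, 272 and 287 in Gtpbp2. Cplx2 RNA (gene ENSMUSG00000025867.8, chr13:54371349-54383917, plus strand of GRCm38) was 751, 839 and 673 CPM in B6J, 409.5, 375 and 429 in Gtpbp1 and 508, 443 and 426 in Gtpbp2. For both genes the B6J libraries stood far above those of either mutant. Cplx2 had the lowest log2 fold change of all members called in Gtpbp1, -0.90 ± 0.10 (adjusted p 4.26e-05), and fell by 0.72 ± 0.10 log2 units (adjusted p 0.00168) in Gtpbp2. Cplx1 fell by 0.81 ± 0.08 log2 units (adjusted p 3.03e-05) and 0.66 ± 0.09 log2 units (adjusted p 0.00123). These 4 calls held in all 8 alternatives and all 6 fits with 1 library left out, with the highest adjusted p of a left-out fit at 0.0177. Cplx1 footprints were 287, 290.2 and 361 CPM in B6J, 235, 238 and 168 in Gtpbp1 and 263, 220.1 and 313 in Gtpbp2, and Cplx2 footprints 145, 207 and 199 CPM in B6J, 113, 88.0 and 126 in Gtpbp1 and 129.7, 93.7 and 109 in Gtpbp2. Only Gtpbp2 library 3, for Cplx1, reached the B6J range. Cplx2 footprints fell in Gtpbp2 by 0.73 ± 0.18 log2 units (adjusted p 0.0408) and stood at a log2 fold change of -0.75 ± 0.20 (adjusted p 0.116) in Gtpbp1, where DESeq2 called them, and Cplx1 footprints at a log2 fold change of -0.54 ± 0.20 (adjusted p 0.246) and -0.23 ± 0.17 (adjusted p 0.517). The Cplx2 footprint call ended without Gtpbp2 library 1, Gtpbp2 library 2, Gtpbp2 library 3, B6J library 2 or B6J library 3 (adjusted p up to 0.187) and with all 9 libraries in 1 model (up to 0.0748 over the 5 alternatives). Cplx3 had 16 to 71 estimated RNA counts a library and was not called, and Cplx4 had 0 to 12.

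**Figure D2:**
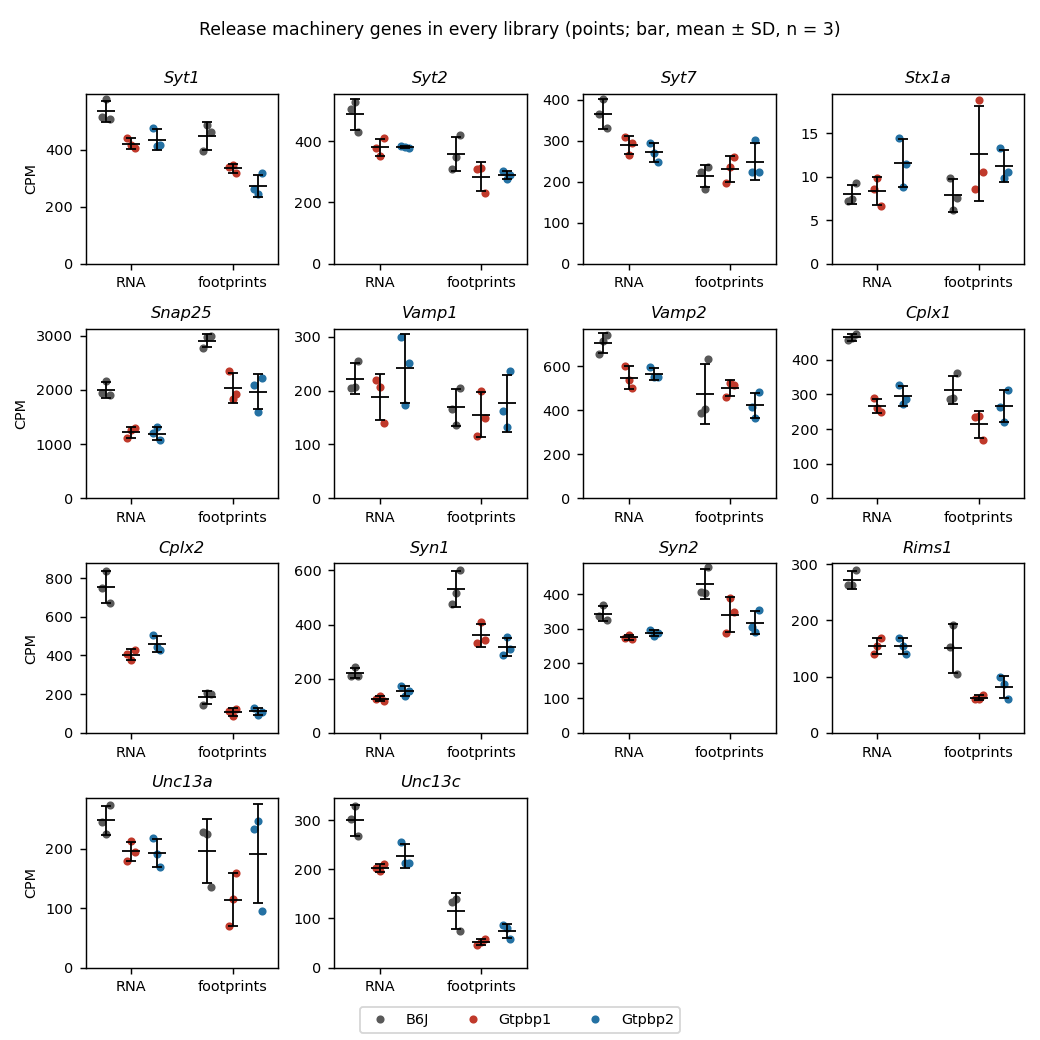
Release machinery genes, 14 in all, in every library. Each panel shows 1 gene in CPM from 0, RNA on the left and footprints on the right, with B6J in grey, Gtpbp1 in red and Gtpbp2 in blue; points are libraries and bars the mean with SD of 3. The RNA of Snap25, Cplx1, Cplx2, Syn1 and Rims1 shows all mutant points below all B6J points, while those of Stx1a and Vamp1 mix.

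RIM proteins, the scaffold of the active zone, come from Rims1 and Rims2 in their long form, and from Rims3 and Rims4 as short forms. Rims1 RNA (gene ENSMUSG00000041670.16, chr1:22286251-22805994, minus strand of GRCm38) was 263, 263 and 289.7 CPM in B6J, 140.1, 154 and 168 in Gtpbp1 and 168, 154 and 141 in Gtpbp2. Its footprints were 153, 192 and 106 CPM in B6J, 60.6, 59.4 and 67.7 in Gtpbp1 and 99.0, 86.4 and 59.4 in Gtpbp2. All mutant libraries were below all B6J libraries in both assays, and the 3 Gtpbp1 footprint libraries were close to each other. The RNA fell by 0.83 ± 0.09 log2 units (adjusted p 3.63e-05) in Gtpbp1 and 0.82 ± 0.09 log2 units (adjusted p 0.000300) in Gtpbp2, and held in all alternatives and left-out fits. Rims1 was the member whose footprints fell in Gtpbp1, by 1.26 ± 0.22 log2 units (adjusted p 0.0209), and its log2 fold change in Gtpbp2 was -0.88 ± 0.24 (adjusted p 0.0718), which DESeq2 called. So did edgeR with no filter, with replicate number as a block and without B6J library 3. The Gtpbp1 footprint call ended without Gtpbp1 library 1, Gtpbp1 library 2, B6J library 1 or B6J library 2 (adjusted p up to 0.131).

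Rims2 RNA was 199, 215 and 174 CPM in B6J, 134, 125 and 147 in Gtpbp1 and 162, 149 and 112 in Gtpbp2, and its footprints 122, 101 and 94.6 CPM in B6J, 64.1, 61.4 and 53.3 in Gtpbp1 and 101, 81.4 and 75.0 in Gtpbp2. Only Gtpbp2 footprint library 1 reached the B6J range. The RNA fell in Gtpbp1 by 0.54 ± 0.09 log2 units (adjusted p 0.00140), and was at a log2 fold change of -0.48 ± 0.13 (adjusted p 0.0512) in Gtpbp2, where DESeq2 called it, as did edgeR with no filter, the length offset or all 9 libraries in 1 model. The footprints were at a log2 fold change of -0.82 ± 0.19 (adjusted p 0.0703) and -0.30 ± 0.17 (adjusted p 0.399), and those of Gtpbp1 were called by DESeq2 and by edgeR with all 9 libraries. Rims4 RNA, at 188, 209 and 199 CPM in B6J against 130.2, 121 and 130.4 in Gtpbp1 and 133, 133 and 126 in Gtpbp2, fell by 0.65 ± 0.07 log2 units (adjusted p 6.56e-05) and 0.61 ± 0.07 log2 units (adjusted p 0.000580), calls that held in all alternatives and left-out fits. Its footprints were 73.0, 75.9 and 75.8 CPM in B6J, 44.3, 51.7 and 69.0 in Gtpbp1 and 67.4, 76.0 and 50.6 in Gtpbp2, where library 2 matched B6J, and did not pass (log2 differences of -0.45 ± 0.20 and -0.22 ± 0.18). Rims3 RNA was 334, 383 and 323 CPM in B6J, 306, 317 and 328 in Gtpbp1 and 299, 335 and 310.0 in Gtpbp2, which overlap and were not called. Rims3, singled out after its values were seen, had footprints of 68.3, 106 and 48.6 CPM in B6J, 25.6, 33.1 and 48.3 in Gtpbp1 and 43.7, 47.7 and 40.4 in Gtpbp2. The mutant footprint libraries were all below the B6J ones, and the log2 footprint differences, -1.06 ± 0.30 (adjusted p 0.132) and -0.76 ± 0.24 (adjusted p 0.123), did not pass in this edgeR fit. DESeq2 called that of Gtpbp1, and edgeR called that of Gtpbp2 without B6J library 3.

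Munc13 proteins prime docked vesicles by opening syntaxin, and Unc13c encodes Munc13-3, the form of cerebellar granule neurons. Unc13a RNA was 245, 225 and 273 CPM in B6J, 179, 212 and 195 in Gtpbp1 and 218, 191 and 169.7 in Gtpbp2, and Unc13c RNA 303, 329 and 267 CPM in B6J, 203, 196 and 212 in Gtpbp1 and 255, 214 and 213 in Gtpbp2. No mutant library overlapped B6J for either gene. Unc13c RNA fell in both mutants, by 0.57 ± 0.09 log2 units (adjusted p 0.000769) and 0.41 ± 0.10 log2 units (adjusted p 0.0313). Unc13a RNA fell in Gtpbp1 by 0.35 ± 0.09 log2 units (adjusted p 0.0251) and was at a log2 fold change of -0.37 ± 0.11 (adjusted p 0.0557) in Gtpbp2, where DESeq2 called it. Unc13c footprints were 133, 140.0 and 74.1 CPM in B6J, 45.9, 52.1 and 58.7 in Gtpbp1 and 86.2, 79.8 and 57.4 in Gtpbp2, and Unc13a footprints 229, 225 and 135 CPM in B6J, 69.8, 115 and 159 in Gtpbp1 and 233, 246 and 95.7 in Gtpbp2. The Gtpbp1 libraries lay below B6J for Unc13c, while for Unc13a the groups overlapped, with library 3 low in B6J and in Gtpbp2. Footprint differences, at a log2 fold change of -1.15 ± 0.24 (adjusted p 0.0533) and -0.64 ± 0.24 (adjusted p 0.197) for Unc13c and -0.78 ± 0.29 (adjusted p 0.257) and -0.04 ± 0.40 (adjusted p 0.977) for Unc13a, did not pass, but those of Unc13c in Gtpbp1 were called by DESeq2 and, in edgeR, with no filter, with all 9 libraries in 1 model and without library 3 of either genotype. Without B6J library 3, edgeR also called Unc13c footprints in Gtpbp2. The RNA call of Unc13a ended without Gtpbp1 library 1, Gtpbp1 library 3, B6J library 1 or B6J library 3 (adjusted p up to 0.0987) and under upper-quartile scaling, with an offset for transcript length and with sex as a covariate (up to 0.119 over the 8 alternatives), and that of Unc13c in Gtpbp2 without Gtpbp2 library 2, Gtpbp2 library 3, B6J library 1 or B6J library 2 (adjusted p up to 0.122) and under upper-quartile scaling and with an offset for transcript length (up to 0.0523 over the 8 alternatives). The fit with sex held all 9 libraries, and without the covariate that fit kept the Unc13a call.

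Unc13b, which encodes Munc13-2, was the member whose RNA rose in this edgeR fit (gene ENSMUSG00000028456.18, chr4:43058953-43264871, plus strand of GRCm38). It was at 33.0, 33.5 and 25.9 CPM in B6J, 50.7, 47.2 and 42.8 in Gtpbp1 and 48.1, 43.4 and 38.8 in Gtpbp2, every mutant library above every B6J library. It rose by 0.60 ± 0.11 log2 units (adjusted p 0.00252) in Gtpbp1, a call that held in all alternatives and left-out fits. In Gtpbp2 it rose by 0.49 ± 0.12 log2 units (adjusted p 0.0280), a call that ended without Gtpbp2 library 1, Gtpbp2 library 2, B6J library 1, B6J library 2 or B6J library 3 (adjusted p up to 0.0728). By transcript, the coding form Unc13b-201 was at 4.85, 4.06 and 3.01 TPM in B6J, 7.60, 7.10 and 6.33 in Gtpbp1 and 6.38, 6.26 and 5.70 in Gtpbp2, and the intron-retaining Unc13b-211 at 2.28, 3.97 and 1.86 TPM in B6J, 7.17, 5.57 and 6.49 in Gtpbp1 and 6.31, 5.07 and 6.28 in Gtpbp2. Both forms were higher in every mutant library than in any B6J library. Footprints on Unc13b were 27.9, 16.9 and 13.5 CPM in B6J, 16.0, 15.0 and 15.8 in Gtpbp1 and 30.3, 36.5 and 20.5 in Gtpbp2. The Gtpbp1 libraries were close together and under those of Gtpbp2, and the B6J range held the 3 Gtpbp1 libraries and Gtpbp2 library 3. The log2 footprint values, -0.31 ± 0.29 (adjusted p 0.727) and 0.58 ± 0.29 (adjusted p 0.329), and the efficiency in Gtpbp1, -0.89 ± 0.29 (p 0.00819, adjusted p 0.477), did not pass. Unc13d, which encodes the Munc13-4 of blood cells, was scarce, with 6.29, 7.28 and 6.24 CPM of RNA in B6J, 3.45, 4.06 and 3.73 in Gtpbp1 and 2.99, 5.16 and 3.69 in Gtpbp2, all mutant libraries below B6J. It fell in Gtpbp1 by 0.82 ± 0.19 log2 units (adjusted p 0.00976), a call that ended with an offset for transcript length (up to 0.134 over the 8 alternatives), and was at a log2 fold change of -0.75 ± 0.23 (adjusted p 0.0651) in Gtpbp2, where DESeq2 called it.

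Synapsins coat the vesicles of the reserve pool. Syn1 RNA was 209, 242 and 211 CPM in B6J, 126, 136 and 118 in Gtpbp1 and 174, 138 and 156 in Gtpbp2, and its footprints 474, 517 and 602 CPM in B6J, 330.1, 408 and 342 in Gtpbp1 and 289, 354 and 312 in Gtpbp2. No mutant library of either assay reached the B6J range, and Gtpbp1 RNA lay below Gtpbp2 RNA in every library. Syn1 RNA fell by 0.80 ± 0.08 log2 units (adjusted p 3.04e-05) in Gtpbp1 and 0.51 ± 0.10 log2 units (adjusted p 0.00846) in Gtpbp2, and its footprints by 0.74 ± 0.16 log2 units (adjusted p 0.0194) in Gtpbp2, beside a log2 difference of -0.55 ± 0.18 (adjusted p 0.187) in Gtpbp1. The direct log2 RNA difference between the mutants, -0.29 ± 0.09 (p 0.00812, adjusted p 0.9997), did not pass. The Gtpbp2 call of the RNA ended without B6J library 2 (adjusted p up to 0.0539), and that of the footprints without Gtpbp2 library 1, Gtpbp2 library 2 or Gtpbp2 library 3 (adjusted p up to 0.141). Syn2 RNA was 336, 368 and 326 CPM in B6J, 273, 281 and 270.2 in Gtpbp1 and 297, 279 and 288 in Gtpbp2, and its footprints 405, 404 and 478 CPM in B6J, 287, 387 and 347 in Gtpbp1 and 306, 291 and 355 in Gtpbp2. The mutants were below B6J in every library of both assays. Syn2 RNA fell in Gtpbp1 by 0.33 ± 0.08 log2 units (adjusted p 0.0133), and was at a log2 fold change of -0.26 ± 0.08 (adjusted p 0.0671) in Gtpbp2, where DESeq2 called it, with log2 footprint differences of -0.33 ± 0.18 (adjusted p 0.485) and -0.44 ± 0.15 (adjusted p 0.152). The Gtpbp1 call ended without B6J library 1 or B6J library 2 (adjusted p up to 0.0609). Syn3, the scarcest synapsin with 7.91 ± 0.428 TPM in B6J, was not called (log2 RNA differences of -0.03 ± 0.14 and 0.15 ± 0.14).

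Genes of the pathway outside the name rule were taken from a list of 44, all tested: SNARE disassembly, active zone scaffolds, Rab3 and its effectors, other vesicle proteins, release channels, chaperones and endocytosis. In Gtpbp1 RNA 21 of 44 fell (background 7.93%) and 0 rose (background 5.9%), and in Gtpbp2 RNA 16 fell (background 5.02%) and 0 rose (background 3.61%), with a median of -0.27 in each against 0.03 over all genes. DESeq2 called 25 in each (4284 of 19325 and 3409 of 19067 genes), with Rab3c higher in both mutants and Doc2a and Rab27b higher in Gtpbp2. In footprints edgeR called 0 in Gtpbp1 (background 0.745%), with 12 at an unadjusted p under 0.05 (1763 of 13956 genes). DESeq2 called 3 there (406 of 13953 genes), and the median was -0.32. In Gtpbp2 footprints 4 of 44 fell (background 1.67%), Slc17a7, Synpr, Syngr1 and Napa, and the median was -0.16. Sncb, which encodes the synaptic chaperone beta-synuclein, fell by 1.13 ± 0.09 log2 units (adjusted p 5.27e-06) in Gtpbp1 and 0.76 ± 0.12 log2 units (adjusted p 0.00248) in Gtpbp2, and the P/Q- and R-type calcium channel genes Cacna1a and Cacna1e by 0.43 ± 0.09 log2 units (adjusted p 0.00783) and 0.98 ± 0.08 log2 units (adjusted p 2.96e-06) in Gtpbp1 and by 0.43 ± 0.11 log2 units (adjusted p 0.0382) and 0.76 ± 0.12 log2 units (adjusted p 0.00256) in Gtpbp2. The remaining release channel gene, Cacna1b, lay in the other direction and did not pass. Its log2 RNA differences were 0.14 ± 0.07 (adjusted p 0.222) and 0.20 ± 0.09 (adjusted p 0.221). Slc17a7, the glutamate transporter of granule neuron vesicles, fell in RNA by 0.68 ± 0.08 log2 units (adjusted p 0.000104) and 0.68 ± 0.10 log2 units (adjusted p 0.00193) and in Gtpbp2 footprints 2.84-fold (adjusted p 0.00133). Nsf, the ATPase that takes the SNARE bundle apart, fell in Gtpbp1 by 0.49 ± 0.09 log2 units (adjusted p 0.00195), and was at a log2 fold change of -0.27 ± 0.11 (adjusted p 0.169) in Gtpbp2.

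Markers of the cell types of the cerebellum also differed in these libraries, and their part in the members' results was not tested. The 5 granule neuron markers summed to 3677, 3944 and 3813 CPM of RNA in B6J, 2291, 2301 and 2653 in Gtpbp1 and 2411, 2628 and 2337 in Gtpbp2; Cbln3 was the most abundant, none was at 0, and 5 of 5 fell in both mutants. In footprints their sums were 1822, 3128 and 2401 CPM in B6J, 1865, 1224 and 1706 in Gtpbp1 and 1185, 909 and 1075 in Gtpbp2, and 3 of 5 fell in Gtpbp2 (Gabra6, Neurod1 and Cbln3). Beside these sums, the RNA of all members was 12561 ± 560.5 CPM in B6J, 9164 ± 73.0 in Gtpbp1 and 9581 ± 354 in Gtpbp2. The 5 microglial markers, Csf1r the most abundant, summed to 71.2, 72.8 and 74.0 CPM of RNA in B6J, 146, 127 and 121 in Gtpbp1 and 131, 124 and 135 in Gtpbp2, and 3 of 5 rose in both. Oligodendrocyte markers, led by Mbp, summed to 9576, 8378 and 9765 CPM of RNA in B6J, 7244, 7237 and 6148 in Gtpbp1 and 10330, 7722 and 8043 in Gtpbp2. The RNA of all 4 fell in Gtpbp1, while in Gtpbp2 RNA edgeR and DESeq2 called 0 of 4 and none had an unadjusted p under 0.05. Their footprints summed to 9381, 8593.5 and 12864 CPM in B6J, 12803, 10944 and 9906 in Gtpbp1 and 11953, 12839 and 11422 in Gtpbp2. These overlap, and edgeR and DESeq2 called 0 of 4 in the footprints of either mutant against B6J. Of the 5 astrocyte and Bergmann glia markers, Gfap rose and Slc1a3 and Aldh1l1 fell in the RNA of both mutants. Among 5 Purkinje cell markers the RNA of 1 fell in Gtpbp1 (Car8) and of 3 in Gtpbp2 (Car8, Ppp1r17 and Calb1). Of 4 inhibitory neuron markers the RNA of 1 (Sorcs3) fell in Gtpbp1 and of 2 (Slc6a5 and Gad1) in Gtpbp2. In footprints against B6J edgeR called 0 on these 3 lists. There the median log2 fold change of the Purkinje markers was 0.10 in Gtpbp1 and 0.38 in Gtpbp2, where DESeq2 called Itpr1 higher. That of the inhibitory neuron markers was -0.13 in Gtpbp1 and 0.19 in Gtpbp2. Eomes, the marker of unipolar brush cells, fell by 1.35 ± 0.22 log2 units (adjusted p 0.00454) in Gtpbp1 RNA. It was at a log2 fold change of -0.79 ± 0.21 (adjusted p 0.0592) in Gtpbp2 RNA, where DESeq2 called it. The endothelial markers Cldn5 and Pecam1 summed to 43.0, 42.1 and 44.0 CPM of RNA in B6J, 55.7, 64.7 and 60.03 in Gtpbp1 and 56.1, 71.1 and 76.6 in Gtpbp2, and to 105, 74.6 and 122 CPM of footprints in B6J, 289, 198 and 229 in Gtpbp1 and 265, 205 and 227 in Gtpbp2. Cldn5 rose in both mutants and both assays, and Pecam1 in Gtpbp2 RNA.

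Some footprint libraries stood apart by their markers. Purkinje markers, Itpr1 the most abundant, summed to 9029, 5886 and 12525 CPM of footprints in B6J, 11554, 12288 and 6620.1 in Gtpbp1 and 13897, 13763 and 11434 in Gtpbp2, so B6J library 2 and Gtpbp1 library 3 were low. With both left out, an alternative chosen after seeing the data, edgeR again called 1 member in Gtpbp1 footprints, and 81 of 13586 genes. Bone markers, led by Col1a1, summed to 268, 649 and 878 CPM in B6J, 1531, 1353 and 2642 in Gtpbp1 and 599, 956 and 469 in Gtpbp2, all Gtpbp1 libraries above the others. So were those of skeletal muscle markers, led by Acta1, with 5.62, 13.0 and 10.6 CPM in B6J, 22.3, 13.8 and 36.5 in Gtpbp1 and 3.28, 6.81 and 2.79 in Gtpbp2. In Gtpbp1 against B6J edgeR called 0 of these 3 muscle markers, with 2 at an unadjusted p under 0.05 and Myh1 called higher by DESeq2. Of the 3 bone markers edgeR called 0 too, with 3 at an unadjusted p under 0.05 and Col1a2 called higher by DESeq2. Over all genes 1763 of 13956 had such a p, and DESeq2 called 406 of 13953. In Gtpbp1 against Gtpbp2 edgeR called 0 on either list. DESeq2 called Col1a1, Col1a2 and Acta1 higher there, beside 100 of 13860 genes. Choroid plexus markers, led by Ttr, summed to 5517, 3654 and 50.03 CPM of footprints in B6J, 13444, 178 and 12125 in Gtpbp1 and 459, 9276 and 9466 in Gtpbp2, with low libraries in every genotype. Their part in the footprint results was not tested.

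**Figure D3:**
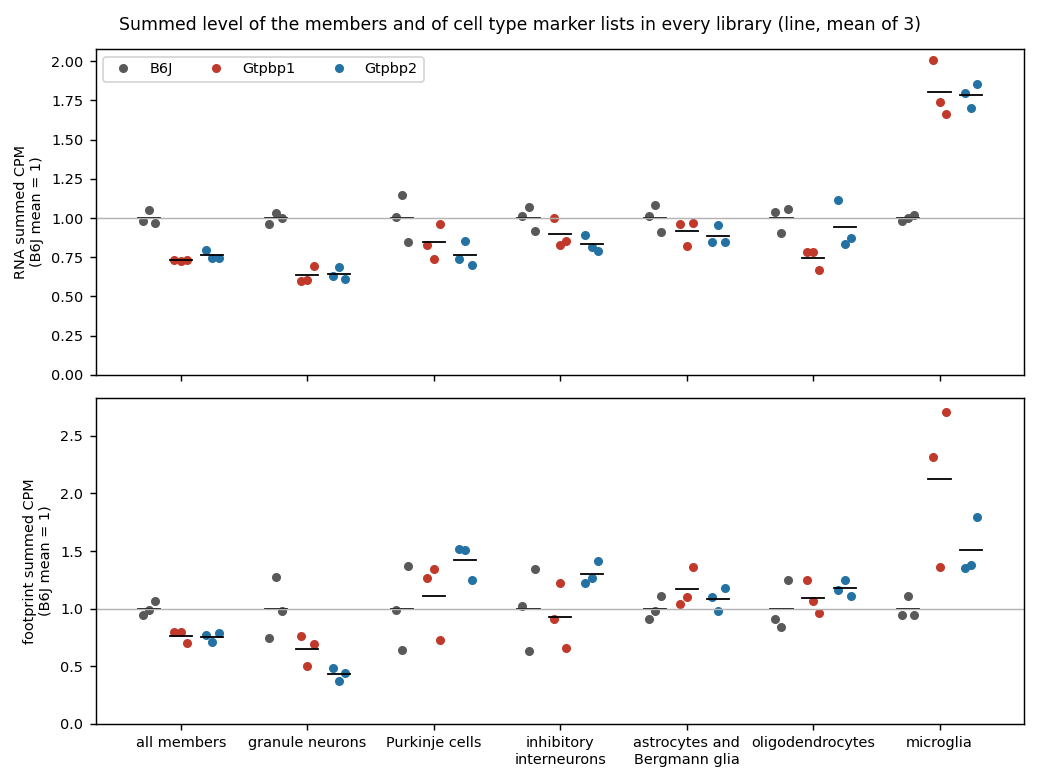
Summed level of the members and of 6 marker lists in every library. The vertical axis gives the summed CPM divided by the B6J mean, RNA above and footprints below; points are libraries and lines the mean of 3, B6J in grey, Gtpbp1 in red and Gtpbp2 in blue. Members and granule neuron markers lie under 1 in all mutant RNA libraries, and microglial markers above it.

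Since the shared tRNA reads AGA, the codon was counted in the longest coding sequence of each gene (Gencode M21 on GRCm38). Members used it about as often as other genes, with a median of 1.03% of codons against 1.12% over all protein-coding genes, or 19.3% of arginine codons against 22.2%. Rims1 has 38 AGA among 1424 codons (2.67%) and Rims2 45 among 1572 (2.86%), whereas Cplx2, Syn1, Syt13, Rims3, Stx11 and Vamp5 have none. The highest shares belong to Vamp3 (3.88%), Vamp4 (3.55%) and Stx8 (3.39%), none of them called. The files hold no read positions, so pausing at any codon was not tested.

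Promoters were searched because many members fell in the same comparisons. Of the 66 members, 50 matched a RefSeq promoter on GRCm38.p6, 300 bases around the gene start, searched on both strands for the cAMP response element TGACGTCA, the C/EBP-ATF response element TGATGNAA to which ATF4 binds, and TTCAGCACC, a piece of the RE1 site of the neuronal repressor REST. They occur in 2.03%, 4.51% and 0.433% of 27025 promoters, and in 2 (Stxbp3 and Syn1), 1 (Syt1) and 2 (Syn1 and Unc13a) of the 50 members. The promoters of Syn1, a strong call in Gtpbp1 RNA, and of Unc13a, a weak one there, are shown for carrying the RE1 piece. All matches are in capitals, with no overlap between them. Syn1 (chrX:20920869-20921168, minus strand) holds the RE1 piece and, after it, the cAMP element, and Unc13a (chr8:71671708-71672007, minus strand) holds the RE1 piece in reverse complement near its end. A match is a stretch of letters, not evidence that a factor binds.
Syn1: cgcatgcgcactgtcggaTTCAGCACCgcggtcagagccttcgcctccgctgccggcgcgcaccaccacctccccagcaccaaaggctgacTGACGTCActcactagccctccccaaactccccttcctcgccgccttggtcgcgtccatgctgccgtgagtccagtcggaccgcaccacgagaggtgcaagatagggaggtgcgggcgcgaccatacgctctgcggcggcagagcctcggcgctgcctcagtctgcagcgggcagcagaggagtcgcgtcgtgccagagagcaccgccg
Unc13a: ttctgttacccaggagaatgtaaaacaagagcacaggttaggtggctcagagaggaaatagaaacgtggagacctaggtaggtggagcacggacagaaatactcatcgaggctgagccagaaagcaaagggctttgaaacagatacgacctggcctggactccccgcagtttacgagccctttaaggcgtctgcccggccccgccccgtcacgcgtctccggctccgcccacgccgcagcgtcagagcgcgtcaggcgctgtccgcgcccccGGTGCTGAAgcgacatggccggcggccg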

How the data were processed

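The authors deposited RNA estimated counts, TPM and effective lengths for each transcript, made with kallisto 0.42.4 on Gencode M20, and footprint counts for each gene, made by clipping reads, removing rRNA with Bowtie2 2.2.3, mapping to mm10 with HISAT2 2.1.0 and counting over coding sequence with featureCounts. Estimated counts and TPM were summed over the transcripts of a gene, and estimated counts were rounded. A gene entered a comparison when 3 or more of its 6 libraries held 5 counts or more, and was tested with the edgeR quasi-likelihood F-test after TMM scaling, and p-values were adjusted by Benjamini-Hochberg over all genes tested. An adjusted p of at most 0.05 is a call. For translational efficiency, histone genes were dropped and 10 counts or more were required in 3 or more of the 6 libraries of each assay. CPM are TMM-scaled over the 9 libraries of an assay, for footprints without a length. Log2 fold changes are those of edgeR, and the standard error after ± is the absolute log2 fold change divided by the square root of its F. Named genes are those called in any comparison and 16 release machinery genes. The members and lists were chosen with earlier results of these data known. The RNA libraries are unstranded, so reads of overlapping opposite genes may be shared, among others by Syn1 with Araf, Syn2 with Timp4, Syn3 with Timp3, Unc13a with Colgalt1, Syt12 with A930001C03Rik, Syt7 with Gm26859, Syt4 with Gm26658, Syt6 with Atg4a-ps, Syt16 with Gm29587, Stx18 with Gm42858 and Nsg1, Snap47 with Jmjd4, Snap29 with Pi4ka and Stx4a with another member. The spread between pairs of replicates exceeded that of counting, the mean chi-square of a pair being 13.1 to 62.8. Software was R 4.3.3 with edgeR 4.0.16, DESeq2 1.42.0 and limma 3.58.1, and Python 3.11.15 with pandas 2.3.3, numpy 2.4.6 and matplotlib 3.10.9. The values of 2 members are not reported here, although counts, medians and sums over the members include them.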

Additional observations from a re-analysis of the deposited data

Results flagged for a closer look

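Unc13b footprints stood out because the Gtpbp1 libraries lay below the B6J mean and the Gtpbp2 libraries above it. B6J library 1 was the highest of its group, and each Gtpbp1 library lay above B6J library 3. Stx3 had a larger log2 difference in footprints between the mutants, -1.08 (p 0.00232, adjusted p 0.247 in the direct edgeR test). The values that follow are those of Unc13b. The log2 difference of Gtpbp1 against Gtpbp2 was -0.90, and the direct edgeR test gave p 0.00314 and an adjusted p of 0.261.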

How the results depend on the processing

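Values here are numbers of members called, unless all genes are named, with the setting used in the report given first. For RNA of Gtpbp2 against B6J, 17 became 29 with DESeq2, 26 with no filter on low counts and 20 with replicate number as a block. Over all genes, 2146 of 24859 became 3409 of 19067, 2894 of 36546 and 2130 of 24859 in the same order. For RNA of Gtpbp1 against B6J, 26 became 18 with the block, while the calls over all genes went from 3398 to 2237 of 24577. For footprints of Gtpbp1 against B6J, 1 became 7 with DESeq2 and 2 with no filter. It became 3 with all 9 libraries in 1 model and 0 with the block. Calls over all genes there went from 104 of 13956 to 406 of 13953, 213 of 16858, 213 of 14304 and 44 of 13956. For footprints of Gtpbp2 against B6J, 7 became 3 with all libraries and 5 with the block. All genes called were 406 of 13797, then 261 of 14304 and 510 of 13797. The block pairs libraries by a number that does not link them. With it the RNA calls of Stx4a, Syn2, Syt1, Syt2, Syt7, Syt9, Unc13a and Vamp2 in Gtpbp1 and of Stx4a in Gtpbp2 ended, as did the footprint calls of Rims1 in Gtpbp1 and of Cplx2, Snap91 and Syt12 in Gtpbp2; these losses are not repeated beside the genes. Leaving out 1 library gave 19 to 29 for Gtpbp1 RNA, 9 (without B6J library 1 or 2) to 20 (without Gtpbp2 library 1) for Gtpbp2 RNA, 0 (without Gtpbp1 library 1 or 2 or B6J library 1 or 2) to 2 (without library 3 of either) for Gtpbp1 footprints, 0 (without Gtpbp2 library 1 or 2) to 7 for Gtpbp2 footprints, and 0 to 2 for efficiency in Gtpbp1, with 2 only without B6J footprint library 3. Direct tests between the mutants stayed at 0. Under upper-quartile scaling the share of called genes that were higher went from 42.6% to 54.9% in Gtpbp1 RNA. In Gtpbp2 RNA it went from 41.9% to 53.3%. With this scaling 25 and 13 members were called, 23 and 12 of them lower, beside 3349 of 24577 and 2015 of 24859 genes.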
